A study of Mus musculus with 15 samples.

Results

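The TET dioxygenases and the genes that act with them on methylated cytosine were followed in mouse embryonic stem cells after knockdown of Tet1 or of Sin3a. The 8 genes were the dioxygenases Tet1, Tet2 and Tet3, the DNA glycosylase Tdg, the isocitrate dehydrogenases Idh1 and Idh2, and the ascorbate transporters Slc23a1 and Slc23a2. They were picked by name for their roles, with earlier results of these arrays in view, and each was found by gene symbol. All 8 had exactly 1 of the 21212 probe sets on the array, named by Entrez gene numbers 52463, 214133, 194388, 21665, 15926, 269951, 20522 and 54338 in the order just given.

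The cells were the feeder-independent line E14TG2a.4 at passage 17, kept in serum and LIF, and every group carried a lentiviral short hairpin RNA (shRNA) followed by puromycin (2 µg per ml) for 72 hours, begun 36 hours after transduction. A Tet1 set of 9 Affymetrix arrays held Tet1 shRNA 4, Tet1 shRNA 5 and a scrambled hairpin, and a Sin3A set of 6 arrays held a Sin3A shRNA and its own scrambled hairpin. Each of the 5 groups had 3 arrays, whose number limits the precision. Whether the 3 arrays of a group stand for 3 cultures is not stated, so a p-value here reflects array-to-array spread that may be no more than technical. All groups are populations of a single cell line under selection, and a knockdown leaves part of the target's RNA in place. Both Tet1 hairpins were set against the same 3 scrambled arrays, so their values are given side by side and not counted as separate evidence.

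TET enzymes oxidise methylcytosine in DNA to hydroxymethylcytosine and then to formylcytosine and carboxylcytosine. The glycosylase TDG removes formylcytosine and carboxylcytosine, and base excision repair puts back an unmodified cytosine. TET enzymes need oxygen, iron and 2-oxoglutarate, which isocitrate dehydrogenases make, and ascorbate raises their activity by keeping the iron reduced. Tet1 and Tet2 are the main family members in mouse embryonic stem cells. SIN3A holds together a co-repressor complex with histone deacetylases and has been found bound to TET1.

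Promoter sequence is shown for Tet1, the gene hit by the Tet1 hairpins, and for Idh1 and Idh2, which moved together in Sin3A knockdown cells. Each is the 250 bases before the annotated start in RefSeq, build GRCm38.p6, written 5′ to 3′ on the gene's own strand with every CG in capitals. The CG is the dinucleotide on which TET enzymes act when its cytosine is methylated, and it reads the same on both strands. The Tet1 window is chr10:62887325-62887574, minus strand, and holds 15 CG. The Idh1 window is chr1:65186480-65186729, minus strand, the outer of 2 annotated starts, and holds 18. The Idh2 window is chr7:80115351-80115600, minus strand, and holds 17.
Tet1: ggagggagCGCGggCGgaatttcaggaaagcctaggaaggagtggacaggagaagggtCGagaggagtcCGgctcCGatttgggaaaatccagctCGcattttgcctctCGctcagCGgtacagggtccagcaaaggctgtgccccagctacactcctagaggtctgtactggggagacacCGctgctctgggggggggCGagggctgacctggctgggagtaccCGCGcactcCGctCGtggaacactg
Idh1: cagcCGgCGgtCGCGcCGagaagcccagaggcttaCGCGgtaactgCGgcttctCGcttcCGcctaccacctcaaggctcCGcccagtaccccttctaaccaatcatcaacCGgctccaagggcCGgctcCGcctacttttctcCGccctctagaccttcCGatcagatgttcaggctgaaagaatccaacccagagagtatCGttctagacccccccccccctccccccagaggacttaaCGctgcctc
Idh2: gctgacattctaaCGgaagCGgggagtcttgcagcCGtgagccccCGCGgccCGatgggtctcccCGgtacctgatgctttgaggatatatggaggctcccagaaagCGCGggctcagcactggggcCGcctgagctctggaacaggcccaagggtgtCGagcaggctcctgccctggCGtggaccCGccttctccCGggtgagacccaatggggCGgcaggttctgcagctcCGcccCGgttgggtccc
Over 32851 windows of the same length, the median was 6 CG and 92.1% held at least 1. The Tet1 window had more CG than 72.7% of them, the Idh1 window more than 78.3% and the Idh2 window more than 76.5%. Of the 8 genes 7, all but Slc23a1, matched the promoter table, with 9 windows, and the remaining windows held 51 CG for Tet2, 17 for Tet3, 19 for Tdg, 22 for the second Idh1 start and 13 and 31 for the Slc23a2 starts. The arrays measured RNA and not methylation, so these counts describe the sequence.

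Levels are given as deposited, on a log2 scale. The 2 sets were scaled apart, with array means of 7.08 to 7.11 in the Tet1 set and 8.09 in the Sin3A set, so levels are compared only within a set. The size of a log2 difference may depend on that scaling too. Where the Tet1 effect is set against the Sin3A effect, a difference in size cannot be told apart from one between the sets. Differences are log2 differences, knockdown minus the scrambled group of the same set, with the standard error (SE) from limma, and the adjusted p is limma's after Benjamini-Hochberg adjustment across the 21212 probe sets. A gene passed when this value was under 0.05. The 8 genes and the wider lists were chosen with earlier results of these arrays known. From each list the genes with the largest differences among those that passed were named. The p-values printed here are therefore not those of unselected genes. All 10 embryonic stem cell markers lay above the median probe set in every group, against 2 to 4 of 10 fibroblast markers, 4 or 5 of 10 primitive endoderm markers and 3 or 4 of 10 trophectoderm markers. Marker levels were summed unlogged and are given on the log2 scale, so the brightest marker weighs most. The embryonic stem cell markers summed to 15.39 to 15.50 in Tet1 knockdown arrays and 15.38 to 15.47 in scrambled arrays. With both Tet1 hairpins 2 of these 10 rose and 1 fell. In the Sin3A set their sum was 15.855 to 15.863 in knockdown arrays and 15.797 to 15.840 in scrambled arrays, and 1 rose and 1 fell. The summed level of the primitive endoderm markers was 10.78 to 10.88 in Tet1 knockdown arrays and 10.41 to 10.56 in scrambled arrays. With both Tet1 hairpins 2 of the 10 rose and 0 fell. In the Sin3A set the sum was 11.88 to 11.90 in knockdown arrays and 11.55 to 11.56 in scrambled arrays. There 2 of the 10 rose and 1 fell, and the highest marker mean was 10.85, against 10.04 in scrambled arrays. The summed level of the trophectoderm markers was 11.04 to 11.09 in Sin3A knockdown arrays and 11.35 to 11.44 in scrambled arrays. Of these 10 markers 4 fell, 1 rose and 5 did not pass, and the highest marker mean was 9.37, against 10.00 in scrambled arrays. The fibroblast markers summed to 10.83 to 11.05 in Sin3A knockdown arrays and 11.05 to 11.20 in scrambled arrays, without overlap before rounding, and 3 of the 10 fell. The part of these markers in the results was not tested. In such bulk RNA, fewer cells of a type and less RNA per cell cannot be told apart. In the Tet1 set, replicate 2 of Tet1 shRNA 4 and replicate 2 of the scrambled group deviated from their groups alike (r = 0.517 between their deviations over the probe sets). Calls of named genes that are lost without this pair are given without it as well. Not every call that newly passes without it is given.

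Both hairpins lowered Tet1, and Slc23a1 was low beside it, while the other 6 genes did not pass the test with either hairpin. In the Sin3A set 4 of the 8 genes rose (Tet1, Tet2, Idh1 and Idh2) and 2 fell (Slc23a1 and Slc23a2). With Tet1 shRNA 4 and with Tet1 shRNA 5 the count was 2 of 8, both lower. The share of all probe sets that passed was 11.6% with Tet1 shRNA 4 (6.88% higher, 4.71% lower) and 13.8% with Tet1 shRNA 5 (8.37% higher, 5.46% lower). In the Sin3A set 24.8% of all probe sets passed (12.2% higher, 12.6% lower). The groups did not overlap for 3 of 8 genes with Tet1 shRNA 4, 3 with Tet1 shRNA 5, 4 between the hairpins and 6 with the Sin3A shRNA, against 25%, 28.9%, 14.9% and 40.5% of all probe sets in that order. Where the mean Tet1 effect was set against the Sin3A effect, 4 of 8 genes passed, 1 higher and 3 lower, against 20% of all probe sets (11.3% higher, 8.71% lower). Since the genes were chosen with results known, nothing is read from these counts against the shares. The median log2 difference over the 8 genes was 0.00 with Tet1 shRNA 4, -0.08 with Tet1 shRNA 5 and 0.17 with the Sin3A hairpin, against -0.00, -0.00 and 0.01 over all probe sets.

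**Figure D1:**
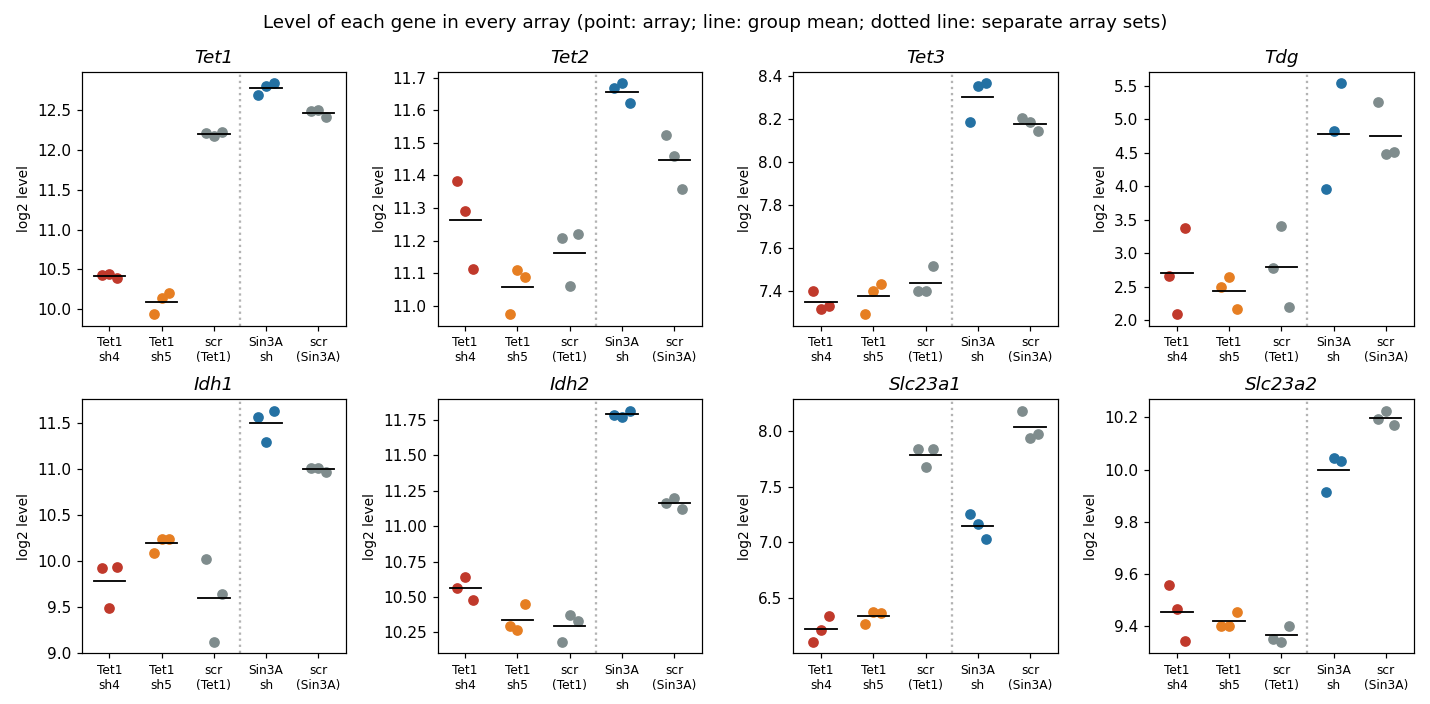
Log2 level of each of the 8 genes in every array, with 1 point per array and a line at the group mean. The dotted line parts the Tet1 set from the Sin3A set, which were scaled separately. Tet1 lies at 10.44 or less in every Tet1 knockdown array, against 12.17 to 12.21 in the scrambled arrays of the same set.

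Tet1, the gene the Tet1 hairpins target, had log2 levels of 10.43, 10.44 and 10.39 with Tet1 shRNA 4 and of 9.94, 10.14 and 10.20 with Tet1 shRNA 5, against 12.21, 12.17 and 12.21 in scrambled arrays. Every knockdown array lay below every scrambled array. The log2 difference was -1.78 ± 0.07 (SE) with Tet1 shRNA 4, a 3.43-fold lower level, and -2.10 ± 0.07 with Tet1 shRNA 5, a 4.30-fold lower level. These values check the labels and carry no p. Between the hairpins the Tet1 level was lower with Tet1 shRNA 5, without overlap, by a log2 difference of -0.33 ± 0.07 that did not pass (adjusted p = 0.165). Over all probe sets 0.141% passed between the hairpins, and limma called 0 of the 8 genes there, with 3 at an unadjusted p under 0.05. With the Sin3A hairpin in place, Tet1 had log2 levels of 12.68, 12.79 and 12.83, against 12.48, 12.49 and 12.41 in scrambled arrays. It rose by 0.31 ± 0.06 (adjusted p = 0.00679), with all 3 knockdown arrays above all 3 scrambled arrays.

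Tet2, the other main dioxygenase of these cells, had log2 levels of 11.38, 11.29 and 11.11 with Tet1 shRNA 4 and of 10.97, 11.11 and 11.09 with Tet1 shRNA 5, against 11.21, 11.06 and 11.22 in scrambled arrays. The groups overlapped for both hairpins. The log2 difference was 0.10 with Tet1 shRNA 4 (95% interval -0.09 to 0.28, adjusted p = 0.544) and -0.11 with Tet1 shRNA 5 (-0.29 to 0.08, adjusted p = 0.494). The intervals leave out changes in Tet2 as large as those of Tet1. With the Sin3A shRNA Tet2 had log2 levels of 11.67, 11.68 and 11.62, against 11.52, 11.46 and 11.36 in scrambled arrays, and rose by 0.21 ± 0.06 (adjusted p = 0.0329). Tet2 did not pass when scrambled replicate 2 (adjusted p = 0.0691), scrambled replicate 3 (0.0929) or any 1 of the Sin3A shRNA arrays was left out (0.0699, 0.117 and 0.0548).

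Tet3, the family member best known from the oocyte and the zygote, had log2 levels of 7.40, 7.31 and 7.33 with Tet1 shRNA 4 and of 7.29, 7.40 and 7.44 with Tet1 shRNA 5, against 7.40, 7.40 and 7.51 in scrambled arrays. In 4 of these 9 arrays the value was tied. The log2 difference was -0.09 with Tet1 shRNA 4 (95% interval -0.23 to 0.05, adjusted p = 0.470) and -0.06 with Tet1 shRNA 5 (-0.21 to 0.08, adjusted p = 0.621). In the Sin3A set Tet3 had log2 levels of 8.19, 8.35 and 8.36 with the Sin3A shRNA, against 8.20, 8.18 and 8.15 in scrambled arrays. The groups overlapped, and the log2 difference of 0.12 (95% interval -0.02 to 0.27) did not pass (adjusted p = 0.199). Without Sin3A shRNA replicate 1 it passed (adjusted p = 0.0475).

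Tdg, the glycosylase that cuts out the oxidised bases, was read by a probe set near the bottom of the array. Its log2 level was 2.66, 2.09 and 3.38 with Tet1 shRNA 4 and 2.50, 2.64 and 2.17 with Tet1 shRNA 5, against 2.78, 3.40 and 2.20 in scrambled arrays. For the Sin3A shRNA it was 3.96, 4.83 and 5.53, against 5.26, 4.48 and 4.52 in scrambled arrays. The group means lay above at most 1.08% of probe sets in the Tet1 set and 6.57% in the Sin3A set. The 95% intervals of the log2 difference ran from -0.85 to 0.69 with Tet1 shRNA 4, from -1.13 to 0.41 with Tet1 shRNA 5 and from -0.84 to 0.89 with the Sin3A shRNA, so a moderate change in Tdg could not be seen here. The adjusted p was 0.921, 0.590 and 0.977 in that order.

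Idh1, the cytosolic isocitrate dehydrogenase, had log2 levels of 11.57, 11.29 and 11.64 with the Sin3A shRNA, against 11.01, 11.01 and 10.97 in scrambled arrays. It rose by 0.50 ± 0.09 on the log2 scale, or 1.42-fold (adjusted p = 0.00497), with no overlap, and missed the threshold (adjusted p = 0.0541) when all 15 arrays shared 1 fit. Idh2, the mitochondrial isocitrate dehydrogenase that uses NADP, had log2 levels of 11.78, 11.77 and 11.81 with the Sin3A shRNA, against 11.17, 11.20 and 11.12 in scrambled arrays. It rose by 0.63 ± 0.05, or 1.55-fold (adjusted p = 0.000154). The Sin3A group lay above the scrambled group in all 3 arrays for both genes.

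With the Tet1 hairpins these enzymes were less clear. Idh1 had log2 levels of 9.92, 9.49 and 9.94 with Tet1 shRNA 4 and of 10.09, 10.24 and 10.24 with Tet1 shRNA 5, against 10.02, 9.12 and 9.64 in scrambled arrays. Replicate 2 was the lowest array in both the shRNA 4 and the scrambled group, the pair that stands apart. The log2 difference of Idh1 was 0.19 ± 0.20 with Tet1 shRNA 4 (adjusted p = 0.653) and 0.60 ± 0.20 with Tet1 shRNA 5 (adjusted p = 0.0849). Without that pair it was 0.10 with Tet1 shRNA 4 and 0.36 with Tet1 shRNA 5 (adjusted p = 0.0769), and without scrambled replicate 1 the Tet1 shRNA 5 difference was 0.81 and passed (adjusted p = 0.0198). Idh2 had log2 levels of 10.56, 10.64 and 10.47 with Tet1 shRNA 4 and of 10.29, 10.27 and 10.45 with Tet1 shRNA 5, against 10.19, 10.37 and 10.33 in scrambled arrays. Its log2 difference was 0.27 ± 0.08 with Tet1 shRNA 4, without overlap (adjusted p = 0.0567), and 0.04 ± 0.08 with Tet1 shRNA 5 (adjusted p = 0.806). Without scrambled replicate 2 the Tet1 shRNA 4 value was 0.30 and passed (adjusted p = 0.0487), and without both arrays of the pair it was 0.26 and did not (adjusted p = 0.105). Set against the Sin3A effect directly, the mean Tet1 effect on Idh2 was lower by a log2 difference of -0.47 ± 0.09 (adjusted p = 0.00132), and that on Idh1 did not differ past the threshold (-0.11, 95% interval -0.61 to 0.39, adjusted p = 0.802).

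Slc23a1 encodes a sodium-dependent ascorbate transporter best known from gut and kidney. Its log2 level was 6.11, 6.21 and 6.34 with Tet1 shRNA 4 and 6.27, 6.38 and 6.37 with Tet1 shRNA 5, against 7.84, 7.68 and 7.84 in scrambled arrays. The knockdown arrays formed a band more than 1 log2 unit below the scrambled arrays. The log2 difference was -1.56 ± 0.08 with Tet1 shRNA 4, a 2.96-fold lower level, and -1.45 ± 0.08 with Tet1 shRNA 5, a 2.73-fold lower level, given without p because this gene was known to be low when it was picked. Slc23a1 was also low in the Sin3A set, at log2 levels of 7.25, 7.17 and 7.03 with the Sin3A shRNA, against 8.19, 7.94 and 7.98 in scrambled arrays. It fell by 0.88 ± 0.08 on the log2 scale, or 1.85-fold, in 3 of 3 arrays (adjusted p = 0.000355). That p too belongs to a gene picked with earlier results of these arrays in view. This fall came with a Tet1 level that was higher in the Sin3A knockdown arrays, as given above.

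Slc23a2, the ascorbate transporter that most tissues use, had log2 levels of 9.56, 9.47 and 9.34 with Tet1 shRNA 4 and of 9.40, 9.40 and 9.46 with Tet1 shRNA 5, against 9.35, 9.34 and 9.40 in scrambled arrays. The groups overlapped, and the log2 difference was 0.09 with Tet1 shRNA 4 (95% interval -0.06 to 0.24, adjusted p = 0.480) and 0.05 with Tet1 shRNA 5 (-0.09 to 0.20, adjusted p = 0.688). Its log2 levels were 9.91, 10.04 and 10.03 with the Sin3A shRNA, against 10.19, 10.23 and 10.17 in scrambled arrays, and fell by 0.20 ± 0.05 (adjusted p = 0.0326). No array can be left out of the Sin3A set without losing this call, with adjusted p between 0.0526 and 0.0899.

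**Figure D2:**
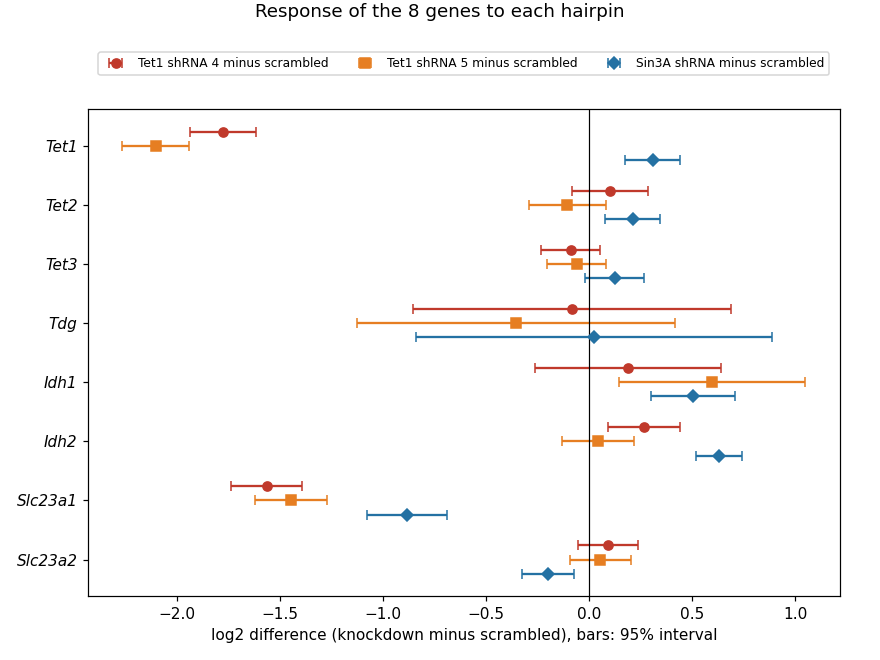
Log2 difference, knockdown minus scrambled, of the 8 genes for Tet1 shRNA 4, Tet1 shRNA 5 and the Sin3A shRNA, with bars for the 95% interval. Tet1 and Slc23a1 lie between -2.10 and -1.45 with the Tet1 hairpins, and Idh1 and Idh2 lie at 0.50 and 0.63 with the Sin3A hairpin.

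The genes with the pattern most like Tet1 were found by Pearson's r over the 15 arrays, after subtracting each set's own scrambled mean. They were Frem2 (r = 0.995), which encodes an extracellular matrix protein of basement membranes, the secretory pathway gene Sec16a (0.990), the Argonaute gene Ago1 (0.990), the cholesterol exporter gene Abca1 (0.989) and Fkbp9 (0.989). For Slc23a1 they were AU015836 (r = 0.992), Klhl13 (0.990), a ubiquitin ligase adaptor gene, Thbs1 (0.983), which encodes a secreted matrix glycoprotein, Sfmbt2 (0.983) and the kinesin gene Kif1a (0.980). Tet1 and Slc23a1 themselves had r = 0.801, which placed Tet1 at rank 527 among the genes most like Slc23a1. These r describe arrays that share groups, so they rest on a few group means.

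The wider ascorbate list held 17 genes of uptake, recycling and synthesis. With both Tet1 hairpins 2 rose and 1 fell (Slc23a1), against 5.4% higher and 3.4% lower among all probe sets. The Sin3A comparison had 4 that rose and 6 that fell, against 12.2% higher and 12.6% lower among all probe sets. Its median log2 difference was 0.05 with the Tet1 hairpins and -0.11 with the Sin3A hairpin, against -0.00 and 0.01 over all probe sets. Gulo, which encodes the last enzyme of ascorbate synthesis, had log2 levels of 7.47, 7.41 and 7.24 with Tet1 shRNA 4 and of 7.36, 7.36 and 7.38 with Tet1 shRNA 5, against 6.77, 6.84 and 6.85 in scrambled arrays. It rose by 0.55 ± 0.07 with each hairpin (adjusted p = 0.000671 with shRNA 4 and 0.000710 with shRNA 5). Akr1a1, whose aldehyde reductase works earlier on that route, rose by 0.39 with Tet1 shRNA 4 and by 0.42 with Tet1 shRNA 5. Gulo and Akr1a1 fell in the Sin3A set, by 0.23 and 0.21, and so moved the other way. The Gulo probe set was dim there, with means of 7.70 with the Sin3A shRNA and 7.93 in scrambled arrays, below array medians of 8.01 to 8.02. Its scrambled mean of 6.82 in the Tet1 set was also below array medians of 6.93 to 6.98. The mean Tet1 effect differed from the Sin3A effect by a log2 difference of 0.78 ± 0.09 for Gulo (adjusted p = 2.37e-05) and 0.61 ± 0.06 for Akr1a1 (1.16e-05).

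The other ascorbate genes that rose with the Sin3A shRNA were Gsto1, whose product reduces dehydroascorbate (log2 difference 0.53), Txnrd1, a thioredoxin reductase gene (0.44), Ugp2 (0.36) and Cyb561, an ascorbate-dependent electron carrier gene (0.24). The Cyb561 probe set was dim, with means of 7.92 with the Sin3A shRNA and 7.68 in scrambled arrays, below array medians of 8.01 to 8.02. Beside the genes already given, Ugdh, a UDP-glucose dehydrogenase gene, fell by 0.31 and the glucose transporter gene Slc2a3 by 0.21 with the Sin3A shRNA. Slc2a3 also fell by 0.43 with Tet1 shRNA 5 (adjusted p = 0.00412). With Tet1 shRNA 4 it was lower by 0.25 and did not pass (adjusted p = 0.0622). The calls of Gulo, Akr1a1, Ugp2, Cyb561 and Slc2a3 in the Sin3A set were lost without at least 3 of the 6 single arrays in turn, with adjusted p between 0.0504 and 0.109. The count that rose was 2 without scrambled replicate 3 or Sin3A shRNA replicate 3. The count that fell was 2 without scrambled replicate 1 or Sin3A shRNA replicate 2. With the Tet1 hairpins 2 genes fell, not 1, without scrambled replicate 2 or without the pair that stands apart. Slc2a3 then passed with Tet1 shRNA 4 as well (adjusted p = 0.0233 and 0.0377 in that order).

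**Figure D3:**
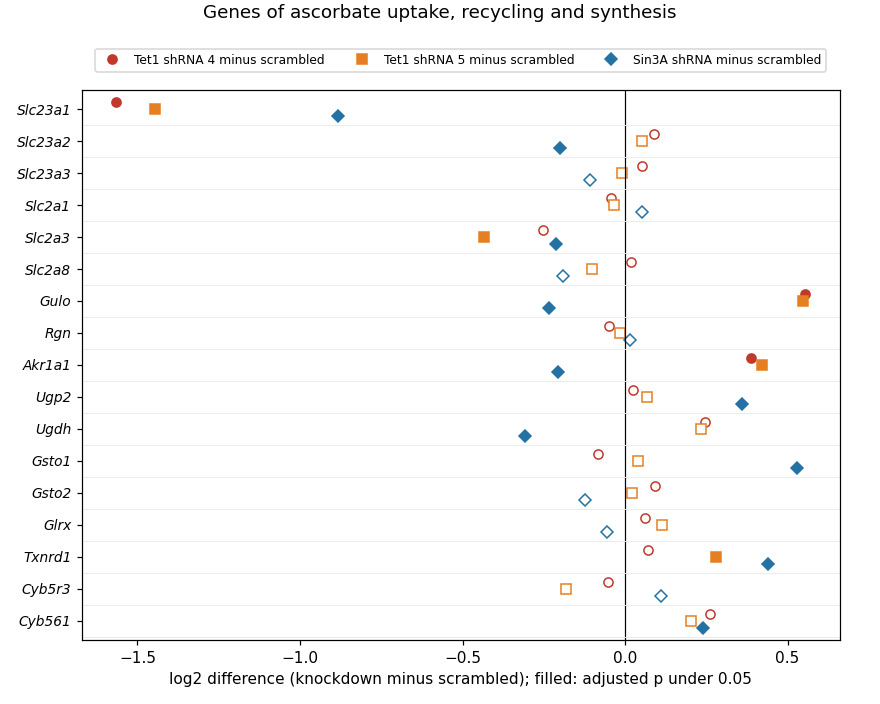
Log2 difference, knockdown minus scrambled, of the 17 ascorbate genes for Tet1 shRNA 4, Tet1 shRNA 5 and the Sin3A shRNA, with filled points where the adjusted p was under 0.05. Slc23a1 lies left of 0 for all 3 hairpins, and Gulo and Akr1a1 lie right of 0 for the Tet1 hairpins and left of 0 for the Sin3A hairpin.

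Of the genes that make or use 2-oxoglutarate, succinate and fumarate, 33 of 35 were matched. Of these 11 rose with the Sin3A shRNA, Idh1 and Idh2 among them, and 1 fell, beside shares of 12.2% and 12.6% of all probe sets. The median log2 difference was 0.07, against 0.01 over all probe sets. Glud1, which encodes the glutamate dehydrogenase that yields 2-oxoglutarate, rose by 0.41 and Aco1, the cytosolic aconitase gene, by 0.40. D2hgdh, whose enzyme turns D-2-hydroxyglutarate into 2-oxoglutarate, fell by 0.37. The count that fell was 2 without Sin3A shRNA replicate 1.

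With both Tet1 hairpins 2 of these 33 genes rose and 1 fell, near the shares of 5.4% and 3.4% over all probe sets. The median log2 difference was 0.11, against -0.00 over all probe sets. Sdhd, a membrane subunit gene of succinate dehydrogenase, had log2 means of 9.95 with Tet1 shRNA 4 and 10.03 with Tet1 shRNA 5, against 9.50 in scrambled arrays. It rose by 0.45 ± 0.06 with Tet1 shRNA 4 (adjusted p = 0.00145) and 0.54 ± 0.06 with Tet1 shRNA 5 (adjusted p = 0.000520). Sdhc, the other membrane subunit gene, rose by 0.24 with Tet1 shRNA 4 and 0.26 with Tet1 shRNA 5, and by 0.25 with the Sin3A hairpin. Gpt2, the mitochondrial alanine aminotransferase gene, fell by 0.44 ± 0.06 with Tet1 shRNA 4 and 0.71 ± 0.06 with Tet1 shRNA 5. The Sdhc call with Tet1 shRNA 4 was lost without scrambled replicate 1 or 3 or any 1 of the 6 knockdown arrays (adjusted p between 0.0535 and 0.132), and that with Tet1 shRNA 5 without scrambled replicate 3 or any 1 of the shRNA 5 arrays (0.0563 to 0.0893). The Tet1 shRNA 4 call was also lost without the pair that stands apart (log2 difference 0.23, adjusted p = 0.0662) and with the replicate number as a block (adjusted p = 0.0556). The count that rose with both was 1 with that block, without scrambled replicate 3 or without any 1 of the knockdown arrays. The count that fell was 3 without scrambled replicate 2 and 4 without the pair.

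**Figure D4:**
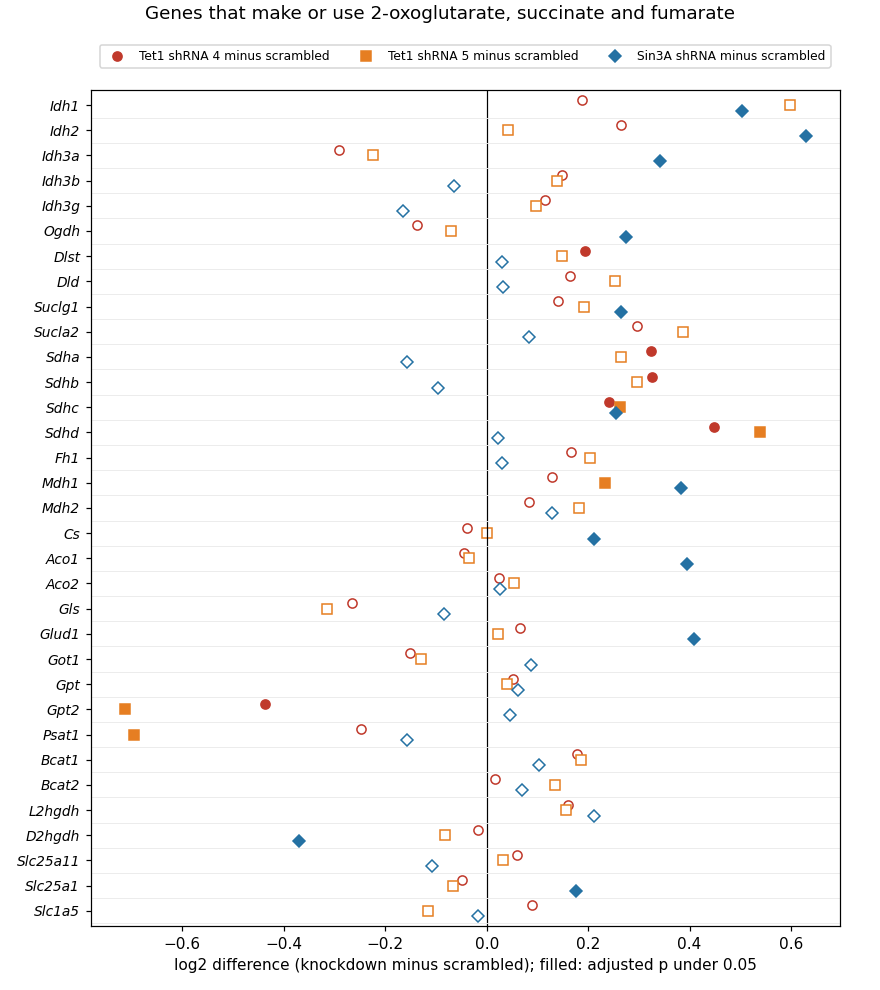
Log2 difference, knockdown minus scrambled, of the 33 genes that make or use 2-oxoglutarate, succinate and fumarate, with filled points where the adjusted p was under 0.05. Idh2 is farthest to the right for the Sin3A hairpin at 0.63, and Gpt2 lies at -0.44 with Tet1 shRNA 4 and -0.71 with Tet1 shRNA 5.

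Of 18 matched iron supply genes, 2 rose and 1 fell with both Tet1 hairpins (5.4% and 3.4% of all probe sets), and 3 rose and 4 fell with the Sin3A shRNA (12.2% and 12.6%). The median log2 difference was 0.05 with the Tet1 hairpins and -0.01 with the Sin3A hairpin. Steap3, an endosomal ferrireductase gene, had log2 levels of 9.42, 9.70 and 9.48 with Tet1 shRNA 4 and of 9.68, 9.88 and 9.81 with Tet1 shRNA 5, against 8.78, 8.72 and 8.51 in scrambled arrays. It rose by 0.86 ± 0.10 with Tet1 shRNA 4 and 1.12 ± 0.10 with Tet1 shRNA 5. In the Sin3A set it had log2 levels of 9.68, 9.59 and 9.49, against 10.27, 10.25 and 10.12 in scrambled arrays, and fell by 0.62 ± 0.07. The mean Tet1 effect differed from the Sin3A effect by 1.61 ± 0.12 (adjusted p = 5.72e-07).

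The iron exporter gene Slc40a1 fell by 1.14 ± 0.08 with Tet1 shRNA 4, by 0.80 ± 0.08 with Tet1 shRNA 5 and by 0.41 ± 0.09 with the Sin3A shRNA. Its probe set was dim. Its mean was 5.66 with Tet1 shRNA 4, 5.99 with Tet1 shRNA 5 and 6.79 in scrambled arrays, below array medians of 6.93 to 6.98. In the Sin3A set it was 6.80 with the Sin3A shRNA and 7.21 in scrambled arrays, below array medians of 8.01 to 8.02. The mitochondrial iron importer gene Slc25a37 rose by 0.44 with Tet1 shRNA 4 and 0.35 with Tet1 shRNA 5. The importer gene Slc39a14 rose by 0.28 and the ferritin heavy chain gene Fth1 by 0.26 in the Sin3A set, beside Aco1. The heme oxygenase gene Hmox1 fell by 0.34.

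Of 42 matched genes of other 2-oxoglutarate dioxygenases and their family, 4 rose and 1 fell with both Tet1 hairpins (5.4% and 3.4% of all probe sets), and 9 rose and 6 fell with the Sin3A shRNA (12.2% and 12.6%). The count that fell with the Sin3A shRNA is near its share. The median log2 difference was 0.01 with the Tet1 hairpins and -0.02 with the Sin3A hairpin. Egln3, a prolyl hydroxylase gene of the hypoxia pathway, rose by 0.97 ± 0.20 with Tet1 shRNA 4, by 0.73 ± 0.20 with Tet1 shRNA 5 and by 0.56 ± 0.07 with the Sin3A shRNA. Its calls with the Tet1 hairpins were lost without shRNA 4 replicate 1 or 3 (adjusted p = 0.0502 and 0.0514) and, with Tet1 shRNA 5, when scrambled replicate 1 or 2 or any 1 of its own arrays was left out (0.0799 to 0.127). Without the pair that stands apart, the Tet1 shRNA 5 difference was 0.68 and did not pass (adjusted p = 0.0510). Phyh, the phytanoyl-CoA hydroxylase gene, rose by 0.87 with Tet1 shRNA 4 and 0.67 with Tet1 shRNA 5. Plod1, a lysyl hydroxylase gene of collagen, rose by 0.59 with Tet1 shRNA 4 and 0.46 with Tet1 shRNA 5 and fell by 0.23 with the Sin3A shRNA, and its mean Tet1 effect differed from the Sin3A effect by 0.76 ± 0.07 (adjusted p = 4.29e-06). The Plod1 call in the Sin3A set was lost without scrambled replicate 1 (0.0601) or Sin3A shRNA replicate 2 (0.0602). Riox1, a nucleolar hydroxylase gene, rose by 0.36 with Tet1 shRNA 4 and 0.48 with Tet1 shRNA 5. Its call with Tet1 shRNA 4 was lost without scrambled replicate 1 or 3 or shRNA 4 replicate 1 or 3 (0.0502 to 0.0906). Kdm6a, a histone demethylase gene, fell by 0.30 with Tet1 shRNA 4 and 0.25 with Tet1 shRNA 5, and at least 1 of these calls was lost on leaving out any single array of the Tet1 set other than scrambled replicate 2 (0.0561 to 0.138), which left 0 of 42 genes that fell with both. With the replicate block the count was also 0.

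With the Sin3A shRNA the histone demethylase genes Kdm7a, Kdm6b and Phf8 rose by 0.57, 0.44 and 0.36. Kdm7a did not pass with Tet1 shRNA 5, but without the pair that stands apart it was lower by 0.53 and passed (adjusted p = 0.0315). The collagen-modifying genes Plod2, P4ha2 and P4ha3 fell by 0.42, 0.37 and 0.27 with the Sin3A shRNA. The probe sets of P4ha2 and P4ha3 were dim, below array medians of 8.01 to 8.02. Their means were 7.52 and 6.89 with the Sin3A shRNA and 7.88 and 7.17 in scrambled arrays. P4ha3 did not pass when scrambled replicate 1 (adjusted p = 0.0691) or Sin3A shRNA replicate 2 (0.0634) was left out. The count that rose was 5 without Sin3A shRNA replicate 2, and the count that fell was 2 without that array or scrambled replicate 1. With both Tet1 hairpins the count that rose was 2 without scrambled replicate 1 or without shRNA 4 replicate 1 or 3.

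Of the 16 base excision repair genes, 1 fell with both Tet1 hairpins (3.4% of all probe sets) and 2 fell with the Sin3A shRNA (12.6%), which is near its share. Their median log2 difference was 0.02 with the Tet1 hairpins and -0.00 with the Sin3A hairpin. Lig3, the ligase that seals the repaired strand, had log2 levels of 8.65, 8.49 and 8.65 with Tet1 shRNA 4 and of 8.61, 8.73 and 8.79 with Tet1 shRNA 5, against 9.47, 9.27 and 9.29 in scrambled arrays. It fell by 0.75 ± 0.08 with Tet1 shRNA 4 (adjusted p = 0.000323) and 0.63 ± 0.08 with Tet1 shRNA 5 (adjusted p = 0.000791). Lig3 in the Sin3A set showed a log2 difference of 0.07 (adjusted p = 0.354), and the mean Tet1 effect differed from the Sin3A effect by -0.76 ± 0.09 (adjusted p = 4.26e-05). The stress-induced gene Gadd45b fell by 0.73 and the glycosylase gene Neil1 by 0.45 with the Sin3A shRNA. Without scrambled replicate 1 of the Tet1 set 2 of the 16 fell with both Tet1 hairpins, and without Sin3A shRNA replicate 1 another 2 rose in the Sin3A set.

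Of 12 genes of TET partner proteins, 2 fell with both Tet1 hairpins (3.4% of all probe sets) and 3 fell with the Sin3A shRNA (12.6%), of which 1 was Sin3a itself, the target of that hairpin. Their median log2 difference was -0.05 with the Tet1 hairpins and -0.10 with the Sin3A hairpin. Sin3a, the gene hit by the Sin3A hairpin, had a log2 mean of 9.38 with the Sin3A shRNA, against 10.93 in scrambled arrays, a difference of -1.55 ± 0.05 that checks the labels. In Tet1 knockdown cells Sin3a fell by 0.27 ± 0.06 with Tet1 shRNA 4 (adjusted p = 0.0147) and 0.24 ± 0.06 with Tet1 shRNA 5 (0.0219). Leaving out scrambled replicate 1 ended both calls (adjusted p = 0.0504 with shRNA 4 and 0.0669 with shRNA 5), as did replicate 1 or 3 of the hairpin's own group (0.0539 to 0.0868), and scrambled replicate 3 ended that with shRNA 5 (0.0582). The RNA-binding protein gene Lin28a fell by 0.42 with Tet1 shRNA 4 and 0.24 with Tet1 shRNA 5, and the Tet1 shRNA 5 call was lost without scrambled replicate 3 or shRNA 5 replicate 2 or 3 (0.0535 to 0.0741). So 1 or 0 of the 12 genes fell with both hairpins when such an array was left out. With the Sin3A shRNA the pluripotency factor gene Nanog fell by 0.27 and the ubiquitin ligase receptor gene Dcaf1 by 0.23. Nanog was the only 1 of the 10 embryonic stem cell markers that fell there, and 1 rose. Lin28a was the only 1 of those 10 that fell with both Tet1 hairpins, and 2 rose.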

How the data were processed

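Total RNA of 15 samples was prepared with Affymetrix's Whole Transcript kit and put on 1 array each, per the labels' protocols. The deposited table holds log2 expression values for 21212 probe sets. Per the submitters' processing notes, the authors used affy, RMA and limma, with versions and settings not given in the sources used here. Symbols were read from the platform annotation: 18786 probe sets had 1 symbol, 6 had several and 2420 had none. Where a gene had several probe sets, the one with the highest mean was kept.

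Tests were two-sided and used lmFit and eBayes (limma 3.58.1, R 4.3.3), adjusted by Benjamini-Hochberg across every probe set and called under 0.05. The Tet1 set had 1 fit with its 9 arrays, the 6 arrays of the Sin3A set another, and all 15 arrays the fit of the mean Tet1 effect minus the Sin3A effect. The fits were also run on simulated data with independent noise in each array, which left out the deviations that real arrays share. Nothing is read from that run here. Groups came from the sample titles. The members, the 6 wider lists and the tests were chosen with earlier results of these data known. From each list up to 4 genes per direction were named, those with the largest difference among genes passing with both Tet1 hairpins or with the Sin3A hairpin, and the 5 genes most like Tet1 and Slc23a1 were named. Of the lists, 33 of 35, 18 of 19 and 42 of 43 genes of 2-oxoglutarate metabolism, iron supply and dioxygenases were matched, and every gene of the other lists. Alternatives changed the normalization, the filter on dim probe sets, the prior variance, the arrays in the fit and the replicate block. Arrays with the same replicate number deviated together between Tet1 shRNA 4 and scrambled (r = 0.274, 0.517 and 0.171). The numbers were therefore taken to pair these groups, from the data and not from the labels. Only replicate 2 was clearly matched. Scrambled replicate 1 had r = 0.281 with Tet1 shRNA 4 replicate 3, and scrambled replicate 3 had r = 0.162 with Tet1 shRNA 4 replicate 1. The other same-number pairs had r between -0.287 and 0.0361. One gene that the naming rule picks is not reported here.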

Additional observations from a re-analysis of the deposited data

Results flagged for a closer look

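For 4 of the 8 genes the mean effect of the Tet1 hairpins differed from the effect of the Sin3A hairpin in the fit of all 15 arrays, with differences as mean Tet1 effect minus Sin3A effect. Over all probe sets 20% passed this test (11.3% higher, 8.71% lower), and 1 of the 4 genes was higher and 3 were lower. The 2 sets were scaled apart, each with its own scrambled arrays. A difference in the size of the effects cannot be told apart from one between the sets. Tet1 differed by -2.25 ± 0.09 on the log2 scale and Slc23a1 by -0.62 ± 0.11, both given without p because their change with the Tet1 hairpins was known when they were picked. Slc23a1 was lower in both knockdowns, and Tet1 was lower with its own hairpins and higher with the Sin3A hairpin. Idh2 differed by -0.47 ± 0.09 (adjusted p = 0.00132), with log2 differences of 0.27 and 0.04 for the Tet1 hairpins and 0.63 for the Sin3A hairpin. Slc23a2 differed by 0.27 ± 0.08 (adjusted p = 0.0253), a call that was lost without Sin3A set scrambled replicate 1 (0.0523) or 2 (0.0613), without Sin3A shRNA replicate 1 (0.0699) and without the 2 arrays that stand apart (0.0501).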

How the results depend on the processing

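Of 667 values of the 8 genes under alternatives, 637 stayed on the same side of the threshold, 10 passed newly, 20 no longer passed and 0 had a call with the other sign. Leaving out 1 array at a time gave 2 to 3 of the 8 genes with Tet1 shRNA 4, 2 to 3 with Tet1 shRNA 5, 0 between the hairpins, 4 to 5 in the Sin3A set and 3 to 4 for the difference of effects. With all 15 arrays in 1 fit, chosen after seeing the data, 1 of 8 passed between the hairpins (Tet1, adjusted p = 0.0361), against 0. Idh2 passed with Tet1 shRNA 4 when dim probe sets were left out (0.0265), with a mean-variance trend (0.0363) and with all 15 arrays (0.0122). Idh1 passed with Tet1 shRNA 5 without dim probe sets (0.0427) and with all 15 arrays (0.0266). Tet2 in the Sin3A set missed it with all 15 arrays (0.0574).

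Between Tet1 shRNA 4 and scrambled, the replicate numbers were taken as pairs, though only replicate 2 was clearly matched. A replicate block in the fit of the 9 arrays changed the Tet1 shRNA 4 call of Sdhc and that of no other gene named. With Tet1 shRNA 5 it ended the Kdm6a call (adjusted p = 0.0638). The block also took in the Tet1 shRNA 5 arrays, whose same-number r lay between -0.287 and 0.0361. It is therefore no check of the pairing between Tet1 shRNA 4 and scrambled alone. In the other comparisons arrays share only a number, and there too not every array correlated best with its own. With the replicate block, 4 of 8 genes passed in the Sin3A set against 6, with Tet2 at 0.0564 and Slc23a2 at 0.0705, and 3 against 4 for the difference of effects, with Slc23a2 at 0.0617. The 30 probe sets that passed between the hairpins became 77 without dim probe sets, 48 with the trend, 188 with all 15 arrays, 1 without the 2 arrays that stand apart, 0 with the block or with only those groups, and 0 to 9 without any 1 array of that set other than scrambled replicate 2. The 5261 of the Sin3A set became 3359 without Sin3A shRNA replicate 2. In the Sin3A set the ascorbate genes that fell became 2 and the dioxygenases that fell 3 with the block (6 each). The genes of 2-oxoglutarate metabolism that fell became 4 without dim probe sets and 5 with the trend (1), and the partners that fell 5 with the trend (3). With both Tet1 hairpins, the genes of 2-oxoglutarate metabolism that rose became 6 without dim probe sets, 5 with the trend or all 15 arrays and 1 with the block or with only the groups compared (2), and those that fell 4 without the 2 arrays that stand apart and 2 without dim probe sets, with the trend or with all 15 arrays (1). Under those 4 settings the ascorbate genes that fell became 2 (1). Without dim probe sets, that of Slc40a1 among them, 0 iron supply genes fell (1). With centred arrays, with the block or with only the groups compared, 0 dioxygenases fell (1). Base excision repair and partner genes that rose became 1 without dim probe sets, with the trend or with all 15 arrays (0), and repair genes that fell 2 with all 15 arrays (1). In the Sin3A set 2 repair genes rose without dim probe sets or with the trend and 1 with all 15 arrays (0). No gene of the 8 had a second probe set to try. The number of arrays and the dim Tdg probe set limit what could be seen. The causes were not tested.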
